A study of Homo sapiens with 6 samples.

Results

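The MYC and MAX network genes examined here were 9 genes taken by symbol from the deposited gene tables: MYC, its obligate partner MAX, the MAX-binding repressors MXD1, MXD3, MXD4, MXI1 and MNT, the large MAX partner MGA, and the MAX-like protein MLX. All 9 were found among the 28491 genes of the count table, and all 9 were among the 16260 genes with enough counts to test. The libraries came from HCT116, an established human colorectal carcinoma cell line. There were 3 NC libraries from cells given a control plasmid and 3 RBM47-OE libraries from cells given a plasmid for the RNA-binding protein RBM47. The labels name the plasmid pcDNA3.1-3xFlag-RBM47, carried in with a lipid reagent, and cells were harvested 48 h after transfection. The overexpression was transient and in 1 line, so the cells of a library can differ in how much plasmid they took up. Nothing in the sources says whether the 3 libraries of a group came from separate cultures, so p-values measure the spread between libraries, which may be technical.

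MYC does not bind DNA alone. It pairs with MAX through a helix-loop-helix and leucine zipper, and the pair binds E-box sequences, most tightly CACGTG, and recruits acetyltransferase and elongation complexes to promoters of genes for ribosome production, nucleotide synthesis and cell cycle entry. The MXD proteins, MXI1 and MNT compete for the same partner and the same sequence and bring SIN3 and histone deacetylases, and MGA brings MAX into a Polycomb complex. MLX pairs with MNT, with some MXD proteins and with the sugar-sensing Mondo proteins. In colorectal cancer MYC is a main target of WNT signalling, and the balance between MYC and the other MAX partners is what the network is known for.

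The overexpressed gene checked the labels: RBM47 stood at 1.91, 2.33 and 1.94 FPKM (fragments scaled to gene length and to the mapped fragments of the library) in NC and at 131.3, 130.41 and 127.04 FPKM in RBM47-OE, a log2 fold change of 5.90 ± 0.096 (SE). Total counts lay between 26792409 and 35477983 per library. Of 10 epithelial markers, 8 were above 1 FPKM, and their summed level was 1974.6 to 2151.49 FPKM in NC and 1831.13 to 2072.72 FPKM in RBM47-OE, while VIL1 and CEACAM5 were near 0. Among the 9 epithelial markers tested, EPCAM was called higher (log2 fold change 0.26), and KRT18 (-0.36), KRT8 (-0.27) and CLDN7 (-0.26) were called lower. Over all genes 19.1% were called higher and 16.9% lower, and with 9 genes these counts are not far from those shares. Of the called markers, EPCAM alone was called with the GC offset (0.27). Of 12 markers of other cell types, 10 were listed, and their summed level was 5.19 to 6.96 FPKM in NC and 5.2 to 6.35 FPKM in RBM47-OE, with the smooth muscle actin gene ACTA2 called lower (-0.56, with overlapping groups). The part of these markers in the results was not tested. RBM47-OE replicate 1 stood apart from the other two libraries of its group: on the first principal component of log2 CPM, which held 43.5% of the variance, it lay at 9.02, the other RBM47-OE libraries at 27.5 and 26.4, and the NC libraries between -21.9 and -19.4. Base composition also moved with the groups. Each RBM47-OE library was compared with the mean of the NC libraries, and each NC library with the mean of the other NC libraries. The rank correlation across genes between exonic GC content and this difference was -0.16, 0.13 and 0.04 for NC. For RBM47-OE it was -0.41, -0.59 and -0.67, so GC-rich genes tended to read lower in RBM47-OE. The members' changes, and many of the others, are therefore also given from a fit with an offset that removes this trend in each library (the GC offset). Whether the trend is technical was not tested.

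The E-box is the sequence through which the network acts, and it also lies in the promoters of some of its own members. RefSeq promoter windows (GRCh38.p14, from 250 bases before to 50 bases after a transcript start) were given for 8 of the 9 members, with none for MYC. The hexamer CACGTG, which reads the same on both strands, was found in the windows of 3 members, MXD4, MNT and MLX. These 3 sites are shown because they put the network's own recognition sequence in the promoter windows of network genes. The matches begin at -238 (MXD4), -193 (MNT) and -50 (MLX) bases from the transcript start. The letters CACGTG are in capitals, and each run reads 5′ to 3′ on the strand of the gene.
MXD4 (chr4:2262330-2262359, minus strand): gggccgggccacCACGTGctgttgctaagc
MNT (chr17:2401236-2401265, minus strand): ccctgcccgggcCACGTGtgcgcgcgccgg
MLX (chr17:42567038-42567067, plus strand): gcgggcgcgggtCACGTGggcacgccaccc
Among all RefSeq windows 7.3% (2548 of 35116) held the hexamer, and among genes with at least 1 window 8.8% (2396 of 27305). A match is a run of letters, not a bound site. None of the 3 members that carried it was called in the test described next without the GC offset.

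Each change was tested with edgeR's quasi-likelihood test on the counts, and a gene was called when its Benjamini-Hochberg adjusted p over the 16260 genes was under 0.05. By this rule RBM47-OE had 19.1% of all genes called higher and 16.9% called lower. Among the 9 members, 2 rose (MXI1 and MXD1), 3 fell (MXD3, MAX and MYC) and 4 were not called (MXD4, MNT, MGA and MLX). The median log2 fold change of the 9 was -0.08, against a median of 0.00 over all genes. The study's own thresholds, an unadjusted p under 0.01 with a fold change over 1.5, were passed by 2.38% of all genes in either direction and by 0 of the 9 members in edgeR, DESeq2 or limma, although 7 of the 9 had an unadjusted edgeR p under 0.05, as did 44.4% of all genes. The log2 CPM of the groups did not overlap for 5 of the 9 members, the same 5 that were called, and for 46.5% of all genes tested. With 9 genes these counts are not far from those shares, and the changes were small, from -0.39 to 0.36 on the log2 scale.

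**Figure D1:**
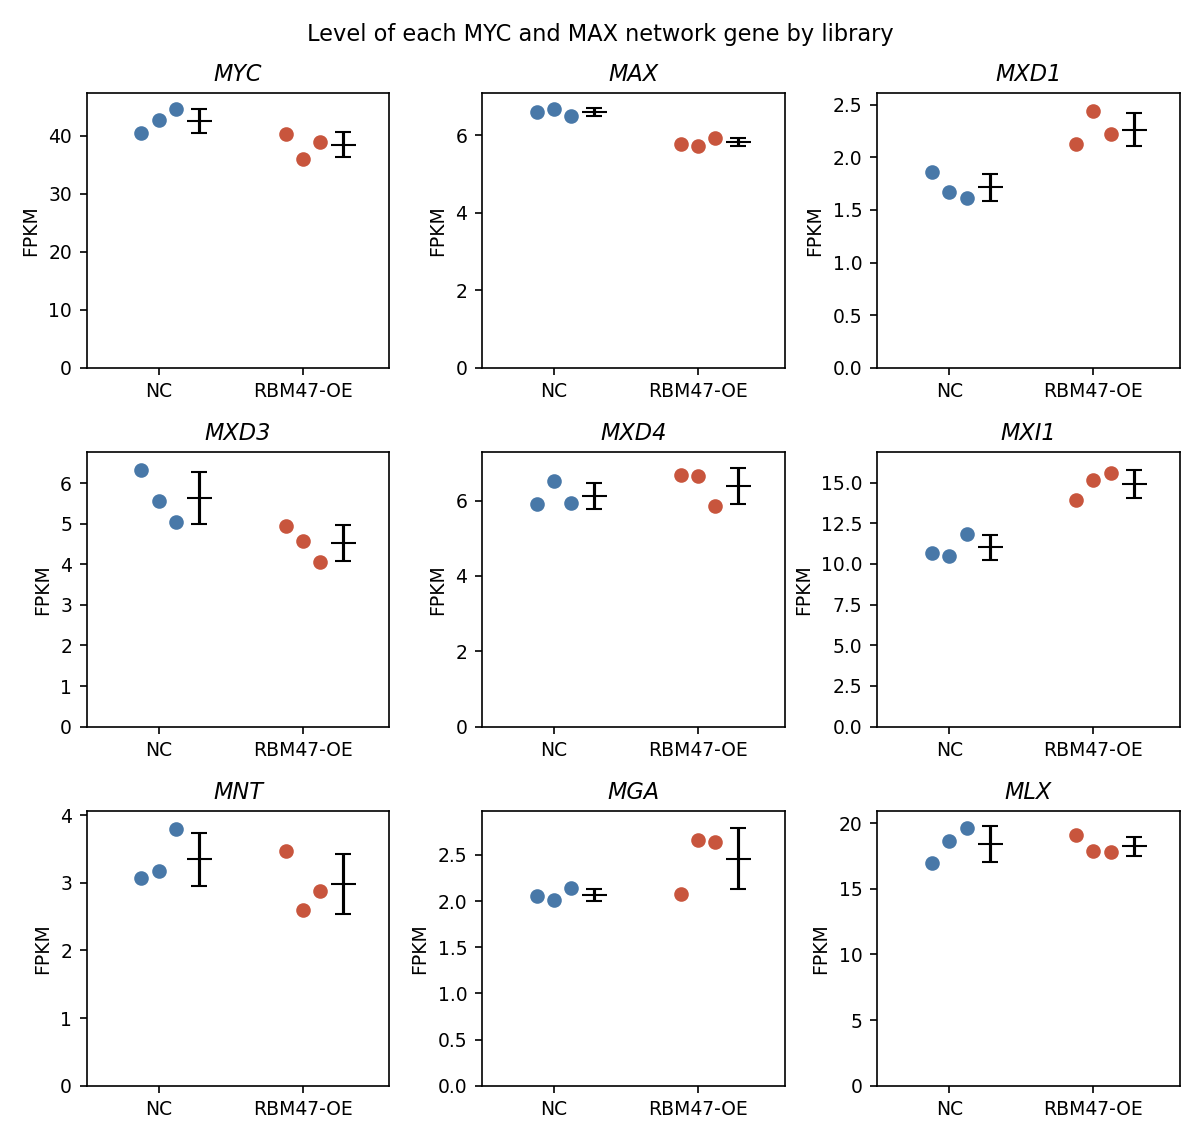
Level of each of the 9 genes in FPKM, with 1 point per library in NC (blue) and RBM47-OE (red) and the mean ± SD beside each group; every axis starts at 0 and each gene has its own scale. MXI1 lies between 13.94 and 15.60 FPKM in RBM47-OE and between 10.51 and 11.87 FPKM in NC, whereas the points of MXD4, MNT, MGA and MLX overlap between the groups.

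MYC was by far the most abundant member. It stood at 40.43, 42.70 and 44.54 FPKM in NC and at 40.36, 36.07 and 38.98 FPKM in RBM47-OE. Of the 16368 genes marked protein-coding, 94.6% read lower than MYC in NC and 94.3% in RBM47-OE. The groups did not overlap, but RBM47-OE replicate 1 and NC replicate 1 were nearly level. In counts MYC had 5681, 7831 and 6805 reads in NC and 6896, 5724 and 5738 in RBM47-OE. The change on the log2 scale was -0.22 ± 0.073 (SE, edgeR adjusted p = 0.023), a fold of 0.861. The call was lost without NC replicate 2 (log2 fold change -0.22), NC replicate 3 (-0.18) or RBM47-OE replicate 2 (-0.15). The GC offset left a log2 fold change of -0.11 (edgeR adjusted p = 0.27). MYC shares 194 exonic bases with CASC11, a noncoding RNA gene on the opposite strand, which stood at 0.43 to 0.59 FPKM and so held few reads beside those of MYC.

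Beside MYC lies PVT1, a long noncoding RNA gene often gained together with it in tumours. PVT1 stood at 2.16, 2.18 and 2.30 FPKM in NC and at 1.87, 1.78 and 1.73 FPKM in RBM47-OE. It fell by 0.37 on the log2 scale (SE 0.075, edgeR adjusted p = 0.0005) and, unlike MYC, kept its call and size with the GC offset (log2 fold change -0.40, edgeR adjusted p = 0.0003). The difference between the changes of PVT1 and MYC was not tested. CASC11 had a log2 fold change of -0.19 and was not called, and CCAT1, another RNA of the locus, was not analysed here.

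The profile of MYC over the 6 libraries was compared with that of every other gene with a mean log2 CPM of at least 5 (5891 genes), by the root mean square difference of log2 CPM values centred on their own mean. The nearest were FTL, the ferritin light chain, at 0.0187, DOT1L, a histone methyltransferase, at 0.0198, and MAP4, a microtubule-binding protein, at 0.0205 log2 units. They shared the libraries and their depth with MYC, and their own log2 fold changes were -0.22, -0.22 and -0.20.

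MAX, the partner without which MYC does not bind DNA, was present at a far lower mRNA level than MYC. It stood at 6.60, 6.68 and 6.48 FPKM in NC and at 5.78, 5.73 and 5.93 FPKM in RBM47-OE. The spread within each group was small, and the groups do not overlap. Its log2 fold change was -0.25 ± 0.076 (SE, edgeR adjusted p = 0.012), and it was the 1 decrease of a member that held with the GC offset (-0.20, edgeR adjusted p = 0.029). The call was lost without NC replicate 1 (-0.25) or NC replicate 2 (-0.24), with the size unmoved. MAX (chr14:65006174-65102695 in GRCh38, minus strand) shares 822 exonic bases with FNTB and 623 with the CHURC1-FNTB readthrough gene on the opposite strand, and neither of these was called, with log2 fold changes of -0.12 and -0.06. It shares 184 more with an opposite-strand gene of 4 to 11 counts per library. The MYC to MAX ratio in FPKM was 6.13, 6.39 and 6.87 in NC and 6.98, 6.29 and 6.57 in RBM47-OE, and these ranges overlap.

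MXI1, a MAX partner of the MXD family that represses MYC targets, showed the firmest change of the network. It stood at 10.67, 10.51 and 11.87 FPKM in NC and at 13.94, 15.19 and 15.60 FPKM in RBM47-OE. The lowest RBM47-OE library lay well above the highest NC library. The gene rose by a log2 fold change of 0.36 ± 0.073 (SE, edgeR adjusted p = 0.00054), a fold of 1.29, and by 0.35 with the GC offset (edgeR adjusted p = 0.00063). It was called in all 17 alternatives, leaving out each library included, with log2 fold changes from 0.33 to 0.43. MXI1 (chr10:110207605-110287365, plus strand) has 38 annotated transcripts, and the gene-level counts do not separate them. It shares 205 exonic bases with an opposite-strand gene of 9 to 34 counts per library, against 1932 to 3107 counts for MXI1.

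MXD1, the founding MXD gene, known to rise as cells leave the cycle and differentiate, had the lowest mean of the 9 in both groups. It stood at 1.86, 1.67 and 1.61 FPKM in NC and at 2.13, 2.44 and 2.22 FPKM in RBM47-OE, from 340 to 537 counts per library. The groups do not overlap, and the log2 fold change was 0.33 ± 0.105 (SE, edgeR adjusted p = 0.015). Under the GC offset it was 0.14 (edgeR adjusted p = 0.37), and the call was also lost without NC replicate 2 (0.31), NC replicate 3 (0.29) or RBM47-OE replicate 2 (0.29). MXD1 (chr2:69897688-69942945, plus strand) shares 237 exonic bases on the same strand with SNRNP27, a spliceosomal protein gene that rose by 0.30 on the log2 scale (SE 0.084, edgeR adjusted p = 0.0074) and read 14.01 to 20.57 FPKM. Under the GC offset SNRNP27 had a log2 fold change of -0.06 and was not called. The part of the shared exons in the change of MXD1 was not tested.

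MXD3, the MXD family member known for its expression in S phase, went the other way. It stood at 6.32, 5.57 and 5.04 FPKM in NC and at 4.94, 4.58 and 4.05 FPKM in RBM47-OE, so the groups only just separate. Its log2 fold change of -0.39 ± 0.098 (SE, edgeR adjusted p = 0.0033) was the largest decrease among the 9, and it was called with each library left out, from -0.47 to -0.30. The value under the GC offset was -0.20 (edgeR adjusted p = 0.11). MXD3 (chr5:177301461-177312757, minus strand) shares 1148 exonic bases with PRELID1, a mitochondrial lipid carrier gene on the opposite strand, and 926 with RAB24 on the same strand. PRELID1 stood far higher, at 103.98 to 153.74 FPKM, and fell by 0.48 on the log2 scale (edgeR adjusted p = 4.9e-05), whereas RAB24 was not called (-0.08). The methods name a stranded library kit, but the sources do not say whether reads were counted by strand. Reads of PRELID1 and MXD3 over the shared bases therefore cannot be told apart here.

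MXD4 stood at 5.92, 6.51 and 5.94 FPKM in NC and at 6.69, 6.66 and 5.85 FPKM in RBM47-OE. The lowest and the highest library both belong to RBM47-OE, and the log2 fold change was -0.01 ± 0.080 (SE, edgeR adjusted p = 0.95). Its reading depended on base composition: its exons are 60.1% GC, the most of the 9, and with the GC offset the log2 fold change was 0.19 (edgeR adjusted p = 0.036), so that MXD4 then counted among the genes that rose.

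MNT, the repressor that most cells express whether or not they divide, stood at 3.07, 3.17 and 3.80 FPKM in NC and at 3.47, 2.60 and 2.88 FPKM in RBM47-OE. The groups overlap through RBM47-OE replicate 1, and the log2 fold change of -0.23 ± 0.106 (SE) was not called (edgeR adjusted p = 0.087). Without RBM47-OE replicate 1 it was -0.37 (edgeR adjusted p = 0.0029). Under the GC offset it was -0.04, for exons of 59.7% GC. MNT shares 1065 exonic bases with an opposite-strand gene of 12 to 30 counts per library, against 782 to 1127 counts for MNT.

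MGA carries a second DNA-binding domain, of the T-box type, and anchors MAX in a Polycomb complex. It stood at 2.05, 2.01 and 2.14 FPKM in NC and at 2.08, 2.66 and 2.64 FPKM in RBM47-OE. RBM47-OE replicate 1 read like the NC libraries, while the other two lay above all of them, and the log2 fold change was 0.18 ± 0.084 (SE, edgeR adjusted p = 0.10). Without replicate 1 it was 0.28 (edgeR adjusted p = 0.0013), and with the GC offset it turned to -0.03, for exons of 42.4% GC, the least of the 9.

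MLX, the second most abundant member, stood at 16.95, 18.63 and 19.62 FPKM in NC and at 19.08, 17.85 and 17.78 FPKM in RBM47-OE. In FPKM the RBM47-OE libraries lie within the NC range. In log2 CPM RBM47-OE replicates 2 and 3 (6.357 and 6.390) lay just below the lowest NC library (6.396). The log2 fold change was -0.08 ± 0.075 (SE, edgeR adjusted p = 0.41) and 0.05 with the GC offset. MLX shares 775 exonic bases with PSMC3IP on the opposite strand, which read 6.43 to 8.07 FPKM and was not called (log2 fold change -0.07). The exact two-sided permutation test on log2 FPKM, which with 3 against 3 libraries cannot give less than 0.10, gave 0.10 for MYC, MAX, MXD1, MXD3 and MXI1 (0.18 after adjustment over the 9 genes) and 0.20 to 1.0 for the others.

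**Figure D2:**
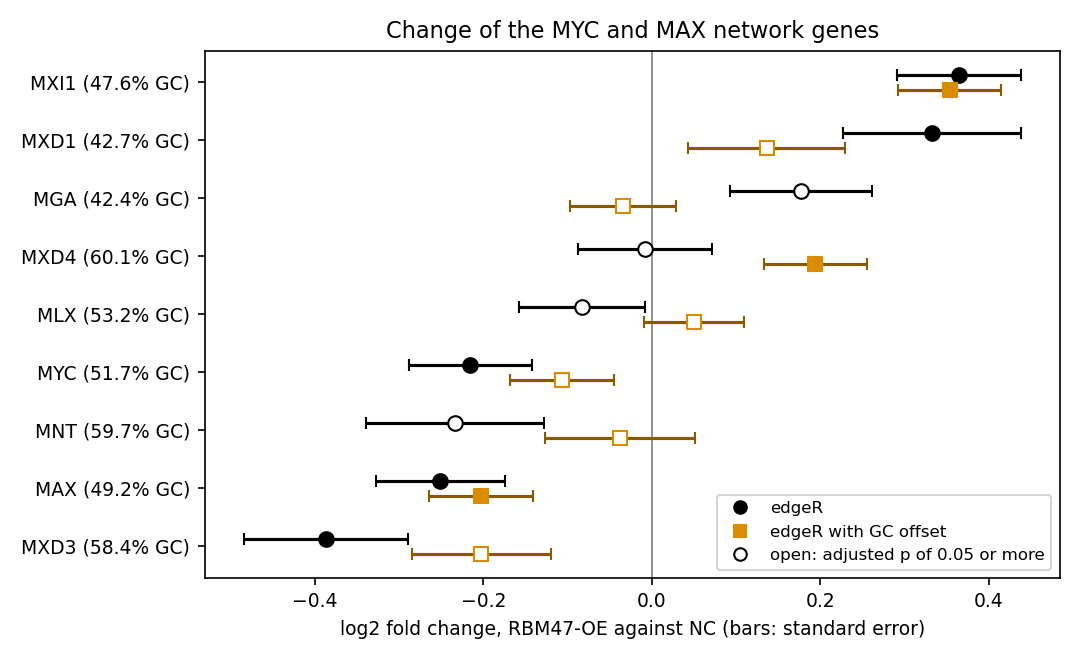
Log2 fold change of each member, RBM47-OE against NC, with its standard error, from the edgeR fit (black circles) and from the fit with the GC offset (orange squares); filled symbols have an adjusted p under 0.05, and exonic GC content stands beside each name. MXI1 and MAX are filled in both fits, MYC, MXD1 and MXD3 in the first only, and MXD4 in the second only.

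With the GC offset the shares over all genes were 6.0% higher and 8.46% lower, and the members gave 2 increases (MXI1 and MXD4) and 1 decrease (MAX). Of the 2 increases and 3 decreases without the offset, 1 and 1 were called again. When limma was run on log2(FPKM + 1) in place of edgeR on counts, 2 members were called higher and 0 lower, with 3 lower at an unadjusted p under 0.05. That fit called 2872 of all 17587 genes higher and 1586 lower. Scaling by library totals in place of TMM ended the calls of MYC (-0.16) and MAX (-0.19). The called members that rose had exonic GC contents of 42.7% (MXD1) and 47.6% (MXI1), and those that fell had 49.2% (MAX), 51.7% (MYC) and 58.4% (MXD3).

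In NC the order of levels in FPKM was MYC, MLX, MXI1, MAX, MXD4, MXD3, MNT, MGA and MXD1. The ranges of neighbours overlapped for MAX with MXD4 and for MXD4 with MXD3, and were separate for the other pairs. In RBM47-OE the order was the same except that MXD4 stood before MAX, and the ranges overlapped for MXD4 with MAX, MNT with MGA and MGA with MXD1. MXI1 alone made up 38.3, 38.3 and 42.0% of the summed FPKM of the 5 repressors MXD1, MXD3, MXD4, MXI1 and MNT in NC and 44.7, 48.3 and 51.0% in RBM47-OE.

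The summed level of these 5 repressors was 27.84, 27.43 and 28.26 FPKM in NC and 31.17, 31.47 and 30.6 FPKM in RBM47-OE. The ratio of MYC to this sum was 1.45, 1.56 and 1.58 in NC and 1.29, 1.15 and 1.27 in RBM47-OE. The group means were 1.53 ± 0.067 (SD, n = 3) and 1.24 ± 0.080 (SD, n = 3), respectively. Every RBM47-OE library had a lower ratio than every NC library. The sum of repressors over MAX was 4.23 ± 0.128 (SD, n = 3) in NC, and RBM47-OE had 5.35 ± 0.170 (SD, n = 3). These ratios combine members whose values had been seen and are given as a description of mRNA levels, without a test. They say nothing of protein levels.

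**Figure D3:**
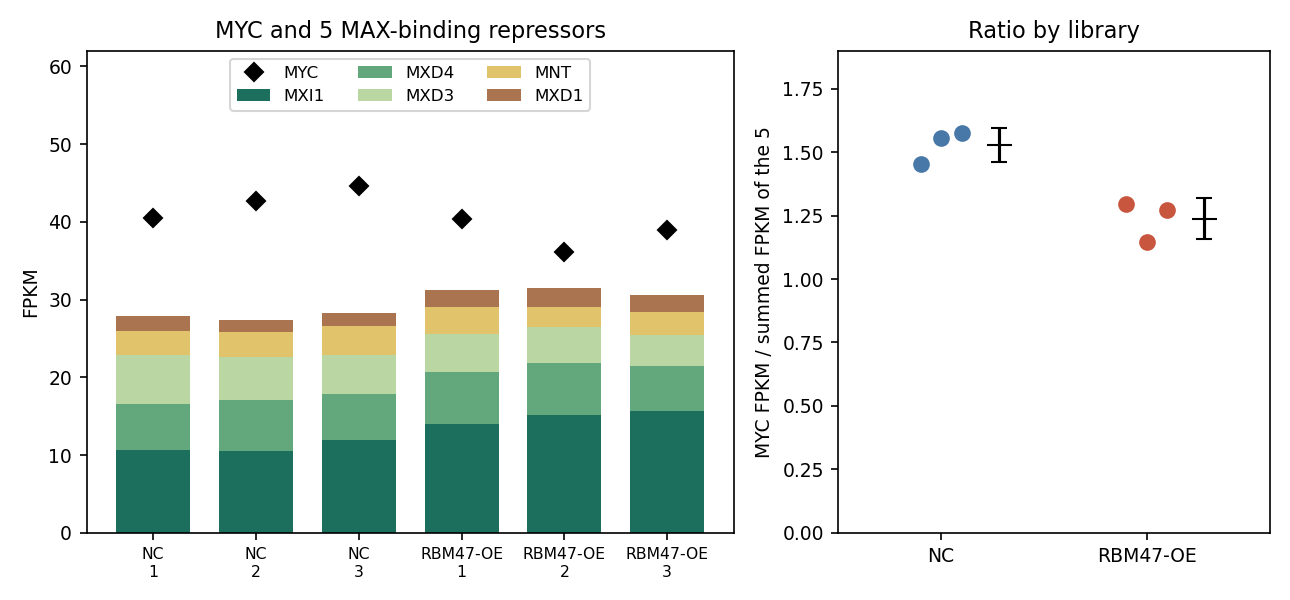
Left, FPKM of the 5 MAX-binding repressors stacked in each library, with MYC as a black diamond on the same axis; right, the ratio of MYC to their sum, 1 point per library with the mean ± SD of each group. The stacks reach 27.43 to 28.26 FPKM in NC and 30.6 to 31.47 FPKM in RBM47-OE, the MXI1 segment gains the most, and the ratio lies between 1.45 and 1.58 in NC and between 1.15 and 1.29 in RBM47-OE.

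The genes known from other systems to be activated by MYC moved mostly one way. A list of 72 such genes, mostly of ribosome assembly, nucleotide and polyamine synthesis and the cell cycle, had 71 members tested (CCND2 had too few counts). The list was chosen with earlier results of these data known, so its counts are a description and not a test. Of these, 41 fell and 10 rose, or 57.7% and 14.1%, where 16.9% and 19.1% of all genes did so, and their median log2 fold change was -0.33. The log2 CPM of the groups did not overlap for 45 genes lower and 7 higher in RBM47-OE, where 23.4% and 23.2% of all genes were so separated. With the GC offset 35 fell and 2 rose, where 8.46% and 6.0% of all genes did so. Of the 35, 33 were among the 41, and the median log2 fold change of the list was -0.18. Exons of the 10 that rose were 41.0% GC in the median, and exons of the 41 that fell were 55.1% GC.

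RRP9, a U3 snoRNP protein needed for ribosomal RNA cleavage, fell most in the list. It stood at 47.18, 49.92 and 48.31 FPKM in NC and at 30.38, 28.92 and 31.24 FPKM in RBM47-OE, with a log2 fold change of -0.75 ± 0.073 (SE) and of -0.54 with the GC offset. GRWD1, a histone-binding protein of ribosome and replication factor assembly, stood at 16.58, 16.53 and 16.75 FPKM in NC and at 10.97, 9.51 and 12.43 FPKM in RBM47-OE, with log2 fold changes of -0.67 and -0.47. These 2 genes were the only ones of the list past the study's thresholds. IMP4, a further part of the U3 complex, read 26.46 to 28.70 FPKM in NC and 16.98 to 20.91 FPKM in RBM47-OE, with log2 fold changes of -0.57 and -0.42. All 3 were called in both fits.

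The genes of the list that rose most without the offset were DDX18, DDX21 and EIF4E. DDX18, a nucleolar helicase, read 10.22 to 11.30 FPKM in NC and 12.83 to 18.31 FPKM in RBM47-OE, with a log2 fold change of 0.48, and of 0.20 with the GC offset (edgeR adjusted p = 0.046). DDX21, a helicase of ribosomal RNA transcription, had a log2 fold change of 0.39 with overlapping groups, and 0.14 with the GC offset (edgeR adjusted p = 0.21). EIF4E, the cap-binding translation factor, had a log2 fold change of 0.38, and 0.06 with the GC offset (edgeR adjusted p = 0.62). The other gene called higher with the offset was HK2, a hexokinase of glycolysis named after its values were seen, at 34.33 to 39.20 FPKM in NC and 44.11 to 46.74 FPKM in RBM47-OE. Its log2 fold changes were 0.25 without and 0.34 with the offset.

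**Figure D4:**
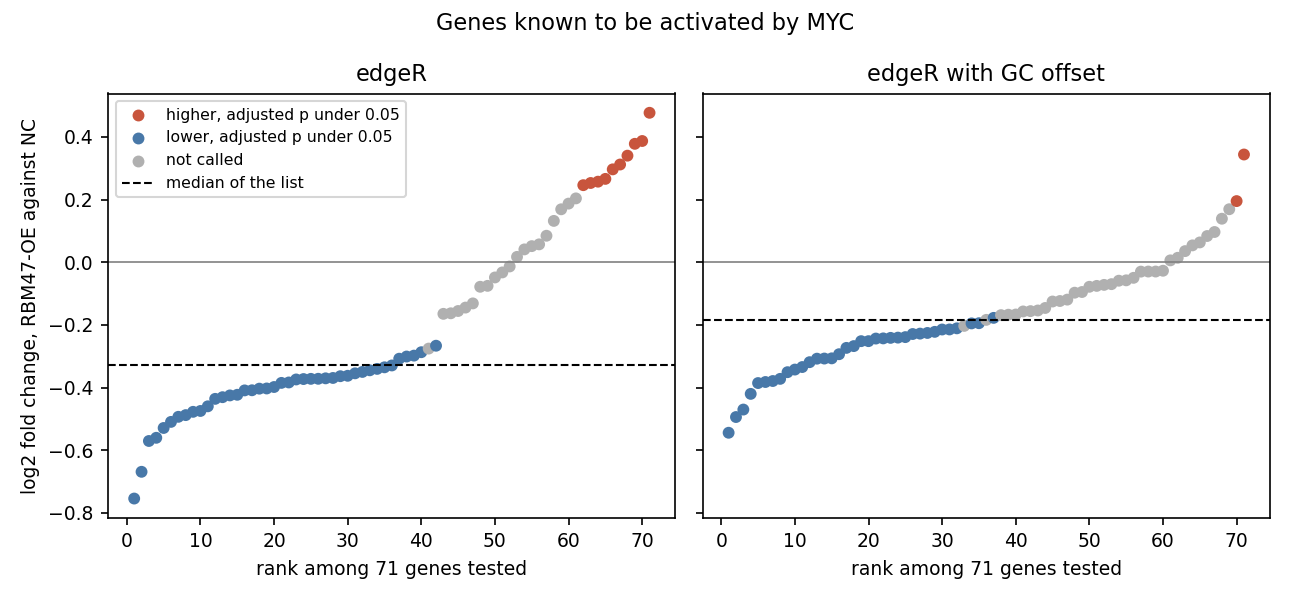
Log2 fold changes, RBM47-OE against NC, of the 71 tested genes known to be activated by MYC, each sorted by its own value, from the edgeR fit (left) and from the fit with the GC offset (right); blue and red mark an adjusted p under 0.05, grey the rest, and the dashed line the median of the list. The left panel has 41 blue and 10 red points around a median of -0.33, and the right panel 35 blue and 2 red points around a median of -0.18.

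The E-box was common in this list. Of its 58 genes with a RefSeq window, 32 (55.2%) held CACGTG, against 8.8% of all genes with a window. That share includes genes not tested here. Among tested genes with a window, 1384 held the hexamer and 9732 did not. The sites of RRP9 and IMP4, which fell, and of DDX21 and EIF4E, which rose without the GC offset, are set beside each other. The windows shown for IMP4 and EIF4E held the hexamer 2 times each, and only the first match is printed. In the fit without the offset, genes that moved in opposite directions carried the same core, in capitals, within different flanks. With the offset DDX21 (0.14) and EIF4E (0.06) were not called. HK2, called higher in both fits, also held the hexamer. The window of GRWD1 held none.
RRP9 (chr3:51941892-51941921, minus strand): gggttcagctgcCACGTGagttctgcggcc
IMP4 (chr2:130342682-130342711, plus strand): gcggtcctaagtCACGTGtgacattctgta
DDX21 (chr10:68956604-68956633, plus strand): ggccgggtgtccCACGTGgtccccggcgac
EIF4E (chr4:98929341-98929370, minus strand): ctacccatcggcCACGTGaccagtcctttt
Within the list, 20 of the 32 genes with the hexamer fell and 6 rose (median log2 fold change -0.35), and 14 of the 26 without it fell and 3 rose (median -0.30). With the GC offset 15 of the 32 fell and 1 rose (median -0.17). Of the 26 without the hexamer, 14 fell and 0 rose in that fit (median -0.23). Across the whole table without the offset, 326 of 1384 tested genes with the hexamer fell and 297 rose (median -0.04), and 1767 of 9732 without it fell and 2198 rose (median 0.02). With the offset 160 of the 1384 fell and 92 rose (median -0.01), and 902 of the 9732 fell and 657 rose (median 0.002). The difference between genes with and without the hexamer was not tested.

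Genes known to be repressed by MYC were called in both directions. Of 11 such genes 10 were tested, with 1 higher and 2 lower (median log2 fold change -0.01). Over all genes 19.1% were called higher and 16.9% lower, and with 10 genes these counts are not far from those shares. CDKN1B, the p27 inhibitor of cyclin-dependent kinases, read 3.01 to 3.24 FPKM in NC and 3.99 to 4.74 FPKM in RBM47-OE, a log2 fold change of 0.40. CDKN1A, the p21 inhibitor, read 231.24 to 261.11 FPKM in NC and 190.76 to 225.11 FPKM in RBM47-OE, a log2 fold change of -0.32, and the transcription factor CEBPA one of -0.34. None of these 3 was called with the GC offset, where 6.0% of all genes were higher and 8.46% lower. CDKN1C, the p57 inhibitor, which is named after its values were seen, was the 1 repressed gene called in that fit, with a log2 fold change of 0.35 (edgeR adjusted p = 0.0005) against 0.13, not called, without the offset.

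Of 15 MYC coactivators 8 fell and 1 rose (53.3% and 6.67%, against 16.9% and 19.1% of all genes, median log2 fold change -0.19). RUVBL2, an ATPase of the TIP60 complex, had a log2 fold change of -0.41, the acetyltransferase KAT2A one of -0.37 and SMARCB1, a SWI/SNF subunit, one of -0.36, while CCNT1, a subunit of the elongation factor P-TEFb, one of 0.27. With the GC offset 2 of the 15 fell in edgeR, RUVBL2 (-0.23) and SMARCB1 (-0.19), and 0 rose, where 8.46% and 6.0% of all genes did so. At an unadjusted p under 0.05 the counts of the list were 6 and 0. The median exonic GC content of the list was 56.8%. Of 14 corepressors of MXD and MNT 4 rose and 1 fell (28.6% and 7.14%, median 0.05). The SIN3 complex members ARID4A, HDAC2 and SUDS3 had log2 fold changes of 0.47, 0.41 and 0.39, and the scaffold SIN3B one of -0.36, while with the GC offset 1 rose (SUDS3, 0.23) and 3 fell, SIN3B (-0.19) among them, with ARID4A and HDAC2 at 0.17 and 0.05 and not called. The difference between the lists was not tested.

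MGA's partners in the Polycomb complex PRC1.6 split, with 4 of 9 higher and 3 lower (44.4% and 33.3%, against 19.1% and 16.9% of all genes). RYBP, RNF2 and PCGF6 had log2 fold changes of 0.42, 0.30 and 0.25, and L3MBTL2, RING1 and TFDP1 had -0.34, -0.30 and -0.21. None of the 9 was called by edgeR with the GC offset, where 6.0% of all genes were higher and 8.46% lower. In that fit 1 of the 9, lower, had an unadjusted p under 0.05.

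Of 12 genes that set the stability of MYC protein or mRNA, 3 rose and 1 fell (25.0% and 8.33%, against 19.1% and 16.9% of all genes). With the GC offset 2 rose and 2 fell, where 6.0% and 8.46% of all genes did so. IGF2BP3 and IGF2BP2, RNA-binding proteins of a family known to stabilise MYC mRNA, had log2 fold changes of 0.45 and 0.26. IGF2BP3 read 9.07 to 9.69 FPKM in NC and 12.40 to 14.47 FPKM in RBM47-OE, and kept its call with the GC offset (0.30), as did IGF2BP2 (0.24). CIP2A, an inhibitor of the phosphatase that destabilises MYC, had 0.38 without and 0.02 with the offset. USP36, a nucleolar deubiquitinase of MYC, read 4.96 to 5.12 FPKM in NC and 3.61 to 3.81 FPKM in RBM47-OE, a log2 fold change of -0.51, and -0.34 with the offset (edgeR adjusted p = 0.0007). SKP2, a ubiquitin ligase subunit that acts on MYC, had overlapping groups and a log2 fold change of -0.12 (not called), and -0.46 with the offset (edgeR adjusted p = 0.0016), and is named here after its values were seen.

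On the MLX side of the network, MLXIP, the MondoA partner of MLX, read 5.22 to 5.41 FPKM in NC and 4.58 to 4.91 FPKM in RBM47-OE. It fell by 0.26 on the log2 scale (SE 0.069, edgeR adjusted p = 0.0055), and had -0.09 with the GC offset (edgeR adjusted p = 0.34). MLXIPL and the MYC paralog MYCL were not called, with log2 fold changes of 0.03 and -0.05, and MYCN was not analysed here. Of the targets of MLX and MondoA, ARRDC4 was called higher (0.57, SE 0.159, edgeR adjusted p = 0.0062), but not with the GC offset (0.40, edgeR adjusted p = 0.096). Its groups overlapped, with 3.49, 4.18 and 3.79 FPKM in NC and 5.05, 8.86 and 4.12 FPKM in RBM47-OE. KLF10 had a log2 fold change of 0.00, and TXNIP was not analysed here. Of 5 other factors that bind E-boxes, USF2 fell by 0.27 on the log2 scale (SE 0.072, edgeR adjusted p = 0.0041), with -0.06 under the GC offset, and USF1, TFE3, TFEB and MITF were not called.

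**Figure D5:**
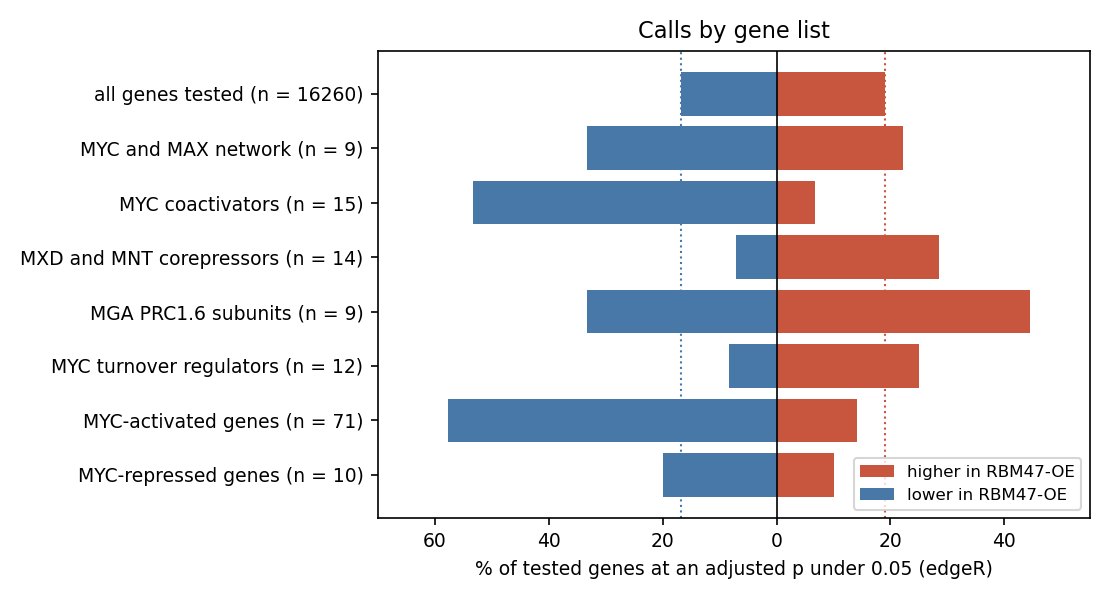
Percent of the tested genes of each list with an edgeR adjusted p under 0.05, higher in RBM47-OE to the right and lower to the left, with the number tested beside each name and dotted lines at the shares over all 16260 genes. The MYC-activated genes reach 57.7% lower and 14.1% higher, against 16.9% and 19.1% over all genes.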

How the data were processed

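Polyadenylated RNA of 3 NC and 3 RBM47-OE HCT116 libraries was sequenced. The authors aligned trimmed reads to GRCh38 by HISAT2, and deposited, for each gene, raw counts of the uniquely mapped ones. The FPKM values were also made by the authors, scaled to gene length and to mapped fragments. The counting tool, annotation release and strand setting are not given in the sources used here. The labels and the methods name different plasmids, media and library kits.

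Counts were tested with edgeR 4.0.16 in R 4.3.3 (filterByExpr with a minimum count of 10 and minimum total of 15, TMM, quasi-likelihood test, condition only). P-values were Benjamini-Hochberg adjusted over 16260 genes. The standard error is the log2 fold change over the square root of F. Log2 CPM used a prior count of 2. The GC offset was a loess curve (span 0.3) per library on exonic GC content from GENCODE 44, known for 16229 of the genes and set to no offset for the rest. Alternatives were other scalings and filters, DESeq2 1.42.0, limma 3.58.1 on log2(FPKM + 1) and log2(FPKM + 0.1), a replicate block, and leaving out each library. The steps were tested on simulated data.

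Named were all members, RBM47, in each list the 3 largest called increases and decreases at a mean log2 CPM of at least 2, all genes of lists of 5 or fewer, and the 3 genes most like MYC. Genes sharing exons with a member are given, by name or by their counts, for that overlap, and SKP2, HK2 and CDKN1C were added after their values were seen. The members and lists were chosen with earlier results of these data known. A gene of the list of MYC stability regulators is not reported here. Sequences are from RefSeq (GRCh38.p14).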

Additional observations from a re-analysis of the deposited data

How the results depend on the processing

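MXI1 and RBM47 were called in all 17 alternatives, and 35 to 42 MYC-activated genes fell in every one. No member passed the study's thresholds in any. The cause of the following changes was not tested. Library totals in place of TMM moved the median of all genes to 0.06 and the share of calls that were higher from 53.1% to 66.2%. With them 3693 of all 16260 genes rose and 1889 fell, and among the members 3 rose and 1 fell. MYC -0.16 and MAX -0.19 were no longer called, MGA 0.24 was, and MXD4 was 0.054. With the GC offset, 41.5% of calls were higher, with 976 of all 16260 genes called higher and 1375 lower. Then 1 member fell and 2 MYC-activated genes rose, MYC -0.11, MXD1 0.14 and MXD3 -0.20 lost their calls, and MXD4 0.19, MGA -0.035 and MLX 0.050 changed sign. The GC offset with the replicate block gave 1 member lower, 2 MYC-activated genes higher, and MYC -0.11, MXD1 0.14, MXD3 -0.20, MXD4 0.19, MGA -0.036 and MLX 0.052. Here 1025 of all 16260 genes were called higher and 1429 lower. With limma on log2(FPKM + 1), 0 members fell, with MYC -0.14, MAX -0.16, MXD3 -0.27 and MXD4 0.054. On log2(FPKM + 0.1) also 0 fell, with -0.15, -0.18, -0.31 and 0.061. Of all 17587 genes, 1586 and 1599 fell in these fits, respectively. Without a filter on log2(FPKM + 1), 1 member rose, 0 fell and 2 MYC-activated genes rose, with MYC -0.14, MAX -0.16, MXD1 0.27, MXD3 -0.27 and MXD4 0.054. Of all 28244 genes, 1410 rose and 908 fell in that fit.

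The replicate numbers did not pair the libraries (correlations of same-numbered deviations -0.06, -0.01 and -0.02). With the replicate block as a term, MNT was called (-0.24, edgeR adjusted p = 0.049), and no other member's call changed.

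Leaving out 1 library gave 1 to 3 members higher, 1 to 4 lower, and 5 to 14 MYC-activated genes higher. Over all genes (16411 to 16638 tested) these fits called 2090 to 3864 higher and 1675 to 3508 lower. Log2 fold changes ran from -0.26 to -0.15 for MYC, -0.27 to -0.22 for MAX, 0.29 to 0.40 for MXD1, -0.052 to 0.050 for MXD4 (above 0 when NC replicate 2 or RBM47-OE replicate 3 was left out), -0.37 to -0.13 for MNT and 0.12 to 0.28 for MGA. With 3 libraries per group, changes near 0.2 on the log2 scale were at the edge of what was called.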
